A study of Homo sapiens with 12 samples.

Results

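Ubiquitin ligases, conjugating enzymes and deubiquitinases attach ubiquitin to proteins, build ubiquitin chains or remove them. Their genes were taken by symbol, as protein-coding genes whose names start with UBE, UBA, UBR, USP, OTUD, JOSD, RNF, TRIM, FBXO, FBXL, FBXW or CUL. A member was a cassette exon event, meaning a middle exon that is kept or skipped between a pair of flanking exons, whose middle exon matched an exon of such a gene on the same strand. Of 4992 events listed in all 12 libraries, 94 met the rule, in 68 genes, and 57 of these in 44 genes had at least 10 isoform-specific reads in every library, the minimum for a test of inclusion. Over all genes 2695 events passed that minimum. No event of an OTUD gene was among the 94. E2 enzymes had 21 events in 12 genes, RNF genes 21 in 14, F-box genes 15 in 11, deubiquitinase genes 14 in 12 and TRIM genes 10 in 9. The symbol rule also took UBALD1 and UBAP1, which are not activating enzymes, a readthrough of RNF103 whose exon is that of CHMP3, and USP39, a splicing factor related to deubiquitinases.

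Ubiquitin passes from an E1 activating enzyme to an E2 conjugating enzyme and from there, with the help of an E3 ligase, to a lysine of the target protein. RING-type ligases (most RNF and TRIM proteins) bring the E2 to the target, while cullin ligases are assemblies in which a cullin holds a RING subunit at one end and a substrate receptor, such as an F-box protein, at the other. Deubiquitinases of the USP and Josephin classes reverse the reaction. In epithelial cells these enzymes set the lifetime of receptors, cell cycle regulators and chromatin factors.

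The cells were MCF10A, an epithelial line from human breast that does not form tumours, and stably expressed an empty vector (MSCV), siRNA-resistant wild-type TIP60 or siRNA-resistant catalytically dead TIP60. TIP60 is the lysine acetyltransferase encoded by KAT5. Each of the 3 derivatives was transfected with either siRNA, control or against TIP60, and collected 72 h later, which gave 6 groups of 2 libraries, numbered replicate 1 and replicate 2. The labels do not say whether a derivative is 1 clone or whether replicates are separate cultures. The p-values measure the spread between these libraries only.

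The libraries held 1277953 to 2280488 event reads, 1983221 to 2280488 in the replicate 1 libraries and 1277953 to 1566296 in the replicate 2 libraries. Reads of the KAT5 form with its listed exon stood at 5.31 to 17.2 per 1000000 event reads of the library (RPM) in the 6 control libraries and at 0 to 3.95 RPM in the 6 TIP60-siRNA libraries. The form without that exon had 0 to 8.38 RPM in empty-vector and 28.2 to 2291 RPM in TIP60-construct libraries. With control and TIP60 siRNA, wild-type libraries had 2291 and 1654 RPM in replicate 1 and 93.0 and 76.8 RPM in replicate 2. Catalytically dead libraries had 988 and 885, then 35.1 and 28.2 RPM, lower than wild type within each number and siRNA. The part of this gap in comparisons of these constructs was not tested. Of 14 epithelial marker genes 6 had a listed event (CDH1, ESRP1, ITGA6, ITGB4, LAMA3 and TP63), with summed reads of 2721 to 4424 RPM in control and 2989 to 5201 RPM in TIP60-siRNA libraries. None of 5 immune and 2 endothelial markers had an event listed in every library, and of 7 mesenchymal markers FN1 alone did, at 21.3 to 816 RPM in control and 34.1 to 2469 RPM in TIP60-siRNA libraries. The part of FN1-expressing cells in any result was not tested, and in bulk RNA fewer cells of a type and less RNA per cell cannot be told apart.

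Of the 57 tested exons, 2 passed the test for a change with TIP60 siRNA averaged over the 3 derivatives, and both were skipped more often. They lie in UBE2E1, an E2 enzyme, and in JOSD2, a Josephin-class deubiquitinase. Another exon, in the RING ligase gene RNF14, was included more often and passed only when the replicate number was a term of the fit. The sequences of these 3 exons are shown because each carries a result, with those of TRIM33 and RNF7 as short coding exons of the same family that did not pass. They are given 5′ to 3′ on the coding strand from the GENCODE 29 transcripts of hg38, and capitals mark the first base of each codon in the frame of the annotated protein.
UBE2E1: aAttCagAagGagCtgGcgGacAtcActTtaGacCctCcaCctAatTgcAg
JOSD2: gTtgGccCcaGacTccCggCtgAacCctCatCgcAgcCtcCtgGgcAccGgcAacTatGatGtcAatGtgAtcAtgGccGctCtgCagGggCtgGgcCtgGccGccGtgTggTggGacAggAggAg
RNF14: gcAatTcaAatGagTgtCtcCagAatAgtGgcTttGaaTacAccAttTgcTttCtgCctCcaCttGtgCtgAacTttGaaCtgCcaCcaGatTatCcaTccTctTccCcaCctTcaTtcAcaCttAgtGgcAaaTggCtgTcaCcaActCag
TRIM33: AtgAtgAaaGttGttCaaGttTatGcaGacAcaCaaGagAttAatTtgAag
RNF7: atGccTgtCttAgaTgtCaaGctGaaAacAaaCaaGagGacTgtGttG

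The UBE2E1 exon has 51 nt and holds parts of codons 51 to 68 of 193, so the form without it keeps the frame and encodes 176 codons. The JOSD2 exon has 126 nt and spans codons 49 to 91 of 188, and its removal also keeps the frame and leaves 146 codons. The RNF14 exon has 152 nt, which is not a multiple of 3, and spans codons 52 to 102 of 474. Without it the same start codon leads to a stop after 79 codons, 975 nt before the last exon junction. The 51-nt TRIM33 exon covers codons 1041 to 1057 of 1127, and the 48-nt RNF7 exon runs from codon 59 to codon 75 of 113, both in frame. The junctions that mark the skipped forms of the 3 genes join 15 bases of the upstream exon, in lower case, to 15 bases of the downstream exon, in capitals.
UBE2E1 skipped: caccagcgccaagagTGCTGGTCCCAAAGG
JOSD2 skipped: tgagatctgcaagagGCCCCTGTCCCAGCT
RNF14 skipped: agatatttgtgagcgCTATCTGCTCTATGC

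Most of these exons were kept in most transcripts. The inclusion level runs from 0 (always skipped) to 1 (always kept) and is the posterior mean that MISO, the program that made the files, assigned in each library. The median level over libraries was at least 0.9 for 30 of the 57 tested exons (52.6%), against 42.6% of the 2638 other tested events, and under 0.5 for 12 (21.1%, against 25.0%). Their median length was 134 nt against 126 nt, 40 lay wholly in coding sequence (70.2% against 70.8%), 10 in a 5′ untranslated region (UTR), and 30 had a length that is a multiple of 3 (52.6% against 56.2%). Among the 40 coding exons, 25 can be dropped without a change of frame or stop codon. For 5 others the shifted frame stops more than 50 nt before the last junction.

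**Figure D1:**
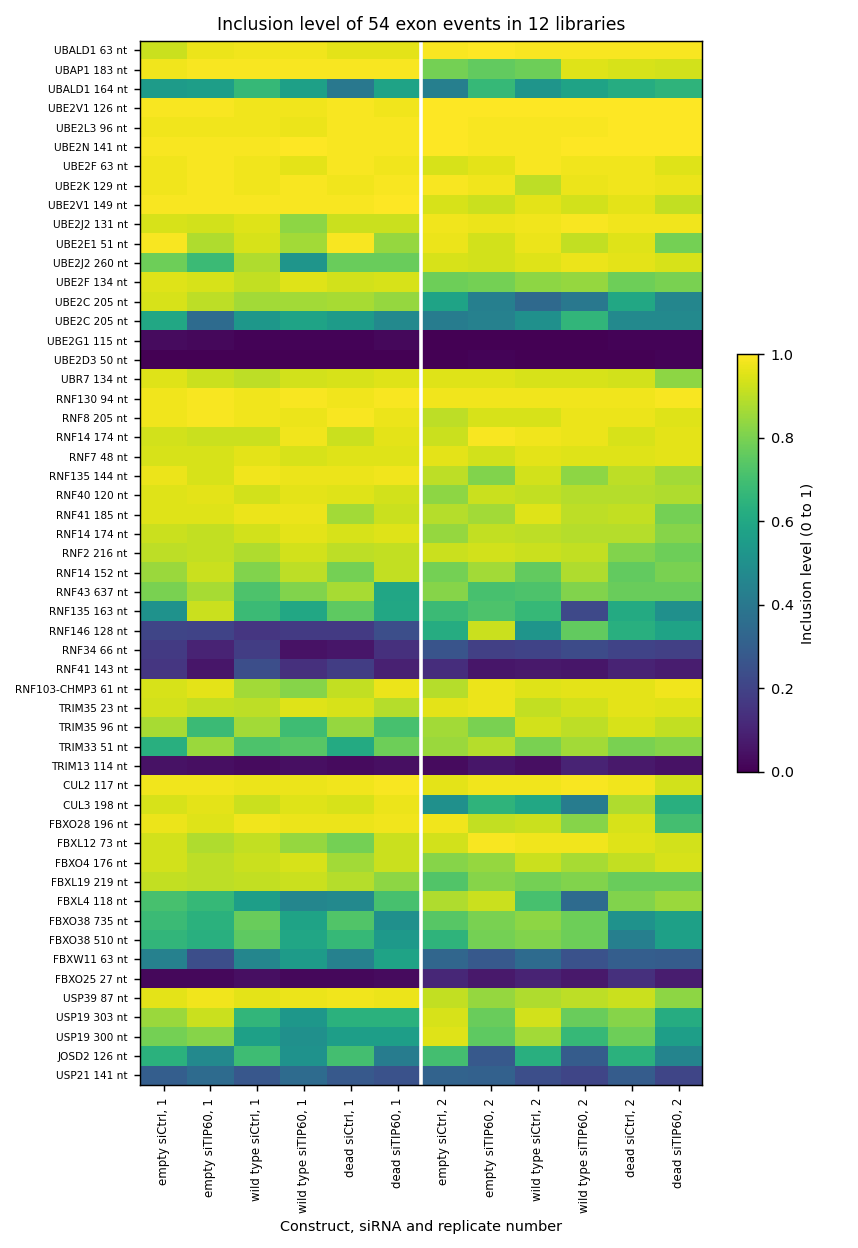
Inclusion level (colour, 0 to 1) of 54 of the tested exons (rows, grouped by role and named by gene and exon length) in 12 libraries (columns), with the 6 replicate 1 libraries left of the white line and the 6 replicate 2 libraries right of it. The E2 exons of UBE2V1, UBE2L3 and UBE2N are near 1 in every library, while the RNF146 row is at 0.16 to 0.24 in the replicate 1 libraries and at 0.52 to 0.92 in the replicate 2 libraries.

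Among the E2 enzymes, 9 of 14 tested exons had a median level of at least 0.9. UBE2V1 is a catalytically inactive partner of UBE2N in building lysine-linked signalling chains. Its 126-nt coding exon on chromosome 20 (50084129 to 50084254) had the most isoform-specific reads of this class, with levels of 0.98 to 1.00. UBE2N itself stayed at 0.99 to 1.00 at a 141-nt exon and UBE2L3, the E2 of many RING-between-RING ligases, at 0.97 to 1.00 at a 96-nt exon. The UBE2V1 exon is also annotated in the readthrough gene TMEM189-UBE2V1, and the reads of the pair cannot be told apart. At the other end, a 50-nt exon of UBE2D3 stood at 0 to 0.01 and a 115-nt 5′ UTR exon of UBE2G1 at 0 to 0.03.

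Among the RING ligases, RNF7, the RING subunit of neddylated cullin 5 assemblies, had the most reads, with 5191 reads of the form with its exon and 203 of the form without. Its level ranged from 0.93 to 0.96, the tightest of the RNF genes apart from a 94-nt exon of RNF130 at 0.98 to 0.99. The 143-nt 5′ UTR exon of RNF41, a ligase for ErbB receptors, was mostly skipped at 0.06 to 0.24, while its 185-nt 5′ UTR exon was mostly kept at 0.79 to 0.97. Among cullins, the 117-nt exon of CUL2 stood at 0.93 to 0.99. Among TRIM genes the exon with the most isoform-specific reads was a 96-nt coding exon of TRIM35 at 0.68 to 0.94. Among deubiquitinase genes it was a 141-nt 5′ UTR exon of USP21 at 0.21 to 0.35. UBR7, whose protein carries a UBR box, had levels of 0.83 to 0.95 at a 134-nt exon. The F-box exon with the most isoform-specific reads was a 735-nt coding exon of FBXO38 at 0.50 to 0.83. Among the UBA symbols a 63-nt exon of UBALD1 stood at 0.92 to 1.00.

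Several levels followed the replicate number more than the construct or the siRNA. Averaged over the 6 libraries of each number, 6 of the 57 exons (10.5%) differed by more than 0.2, against 9.82% of the other tested events. The 128-nt exon of RNF146, a ligase that recognises poly-ADP-ribose, was at 0.192 ± 0.031 in replicate 1 and 0.672 ± 0.145 in replicate 2 libraries (SD, n = 6). CUL3, the scaffold of BTB-type cullin ligases, stood at 0.947 ± 0.018 and 0.613 ± 0.157 (SD, n = 6) at its 198-nt exon, on 11 and 5 reads of the skipped form beside 595 and 446 with the exon. A 205-nt exon of UBE2C, the E2 of the anaphase-promoting complex, stood at 0.878 ± 0.036 and 0.468 ± 0.103 (SD, n = 6) without a single read of the skipped form in any library. In its other tested event the same exon had 0.35 to 0.60 in replicate 1 and 0.42 to 0.66 in replicate 2 libraries. A 260-nt exon of UBE2J2, an E2 of the endoplasmic reticulum, was lower in replicate 1, at 0.733 ± 0.122 and 0.948 ± 0.015 (SD, n = 6), on 4 and 0 skipped-form reads. The labels give no read length for the replicate sets, and its part in these levels was not tested.

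The number of reads of the skipped form limits many of these levels. Of the 57 tested exons, 20 had at most 10 such reads over all 12 libraries (35.1%, against 37.5% of the other tested events) and 7 had none, and where no such reads are seen the posterior mean can stay far from 1 with a wide interval, up to 0.98 wide for UBE2C. The UBE2E1, JOSD2 and RNF14 intervals were at most 0.26, 0.25 and 0.18 wide.

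UBE2E1 was the E2 enzyme whose exon changed. In hg38 the exon is at chr3:23811460-23811510, plus strand (ENSG00000170142.11). Its level with control siRNA was 0.99 and 0.97 in empty-vector cells, 0.94 and 0.97 in wild-type TIP60 cells and 0.99 and 0.95 in catalytically dead TIP60 cells, in the order replicate 1, replicate 2. With TIP60 siRNA the empty-vector libraries had 0.88 and 0.93, the wild-type libraries 0.86 and 0.91 and the catalytically dead libraries 0.84 and 0.79. Every TIP60-siRNA library lay below every control library. The average over the lines fell by 0.10 (SE 0.017, limma adjusted p = 0.036), from 0.968 ± 0.020 to 0.868 ± 0.050 (SD, n = 6 libraries).

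The reads of the UBE2E1 forms differed in opposite directions. Reads of the skipped form summed to 13 over the 6 control libraries and to 48 over the 6 TIP60-siRNA libraries, or 1.24 ± 1.10 and 4.29 ± 1.45 RPM (SD, n = 6), and were higher with TIP60 siRNA in 6 of 6 same-number pairs. Reads of the form with the exon were 103 ± 18.6 and 67.1 ± 19.4 RPM (SD, n = 6) and lower in 6 of 6 pairs. These form-specific reads are the source of the level itself and carry no test of their own.

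JOSD2 showed the largest average change among the 57 exons. Its exon is at chr19:50507574-50507699, minus strand (ENSG00000161677.11). With control siRNA the level was 0.64 and 0.70 in empty-vector cells, 0.69 and 0.63 in wild-type TIP60 cells and 0.70 and 0.64 in catalytically dead TIP60 cells. With TIP60 siRNA it was 0.47 and 0.28, 0.51 and 0.29, and 0.42 and 0.45. The control libraries lay within 0.07 of each other, and all TIP60-siRNA libraries lay below them. The average fell by 0.26 (SE 0.048, limma adjusted p = 0.046), from 0.667 ± 0.033 to 0.403 ± 0.096 (SD, n = 6 libraries).

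For JOSD2 the form with the exon carried the difference in reads. It had 109 ± 46.0 RPM with control siRNA and 38.3 ± 19.8 RPM with TIP60 siRNA (SD, n = 6), lower in 6 of 6 same-number pairs. The skipped form had 17.5 ± 7.82 and 20.6 ± 10.2 RPM (SD, n = 6), lower in 4 pairs and higher in 2. In total 1098 control and 371 TIP60-siRNA reads held the exon, against 181 and 197 reads without it.

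**Figure D2:**
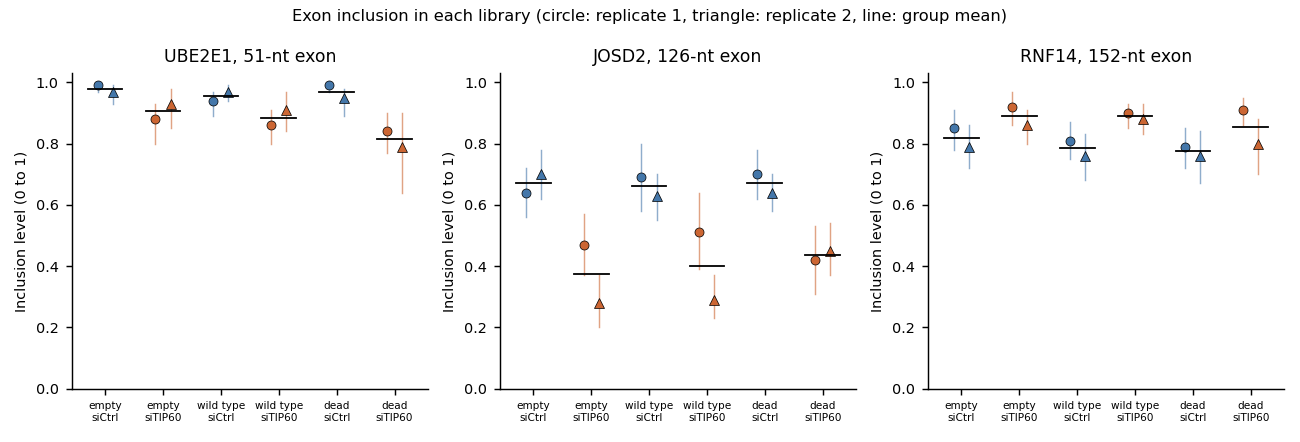
Inclusion level of the UBE2E1, JOSD2 and RNF14 exons in each library (blue, control siRNA; orange, TIP60 siRNA; circle, replicate 1; triangle, replicate 2), with the 95% MISO interval as a thin bar and the group mean of 2 libraries as a line. For UBE2E1 and JOSD2 all 6 TIP60-siRNA libraries lie below the 6 control libraries, and for RNF14 the groups overlap between 0.80 and 0.85.

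RNF14 encodes a RING-between-RING ligase that also binds the androgen receptor. The exon is at chr5:141974804-141974955, plus strand. Its level with control siRNA was 0.85 and 0.79, 0.81 and 0.76, and 0.79 and 0.76 in empty-vector, wild-type and catalytically dead cells, and with TIP60 siRNA 0.92 and 0.86, 0.90 and 0.88, and 0.91 and 0.80. The groups overlapped, but within every line and replicate number the TIP60-siRNA library was higher. The average difference was 0.085 (SE 0.024, limma adjusted p = 0.169), and with the replicate number as a block the exon passed (SE 0.012, limma adjusted p = 0.019). That call was lost when any of 6 of the 12 libraries was left out: empty-vector control replicate 2, either control library of the wild-type or dead line, or wild-type TIP60-siRNA replicate 2 (limma adjusted p up to 0.076). Reads with the exon were 65.1 to 107 RPM with control and 72.8 to 157 RPM with TIP60 siRNA, higher in 6 of 6 pairs. Reads without it were 5.59 to 15.3 and 3.53 to 13.7 RPM, lower in 6 of 6 pairs. A separate 174-nt 5′ UTR exon of RNF14, counted in 2 events, differed by 0.028 in the event with more reads (SE 0.016, limma adjusted p = 0.590).

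**Figure D3:**
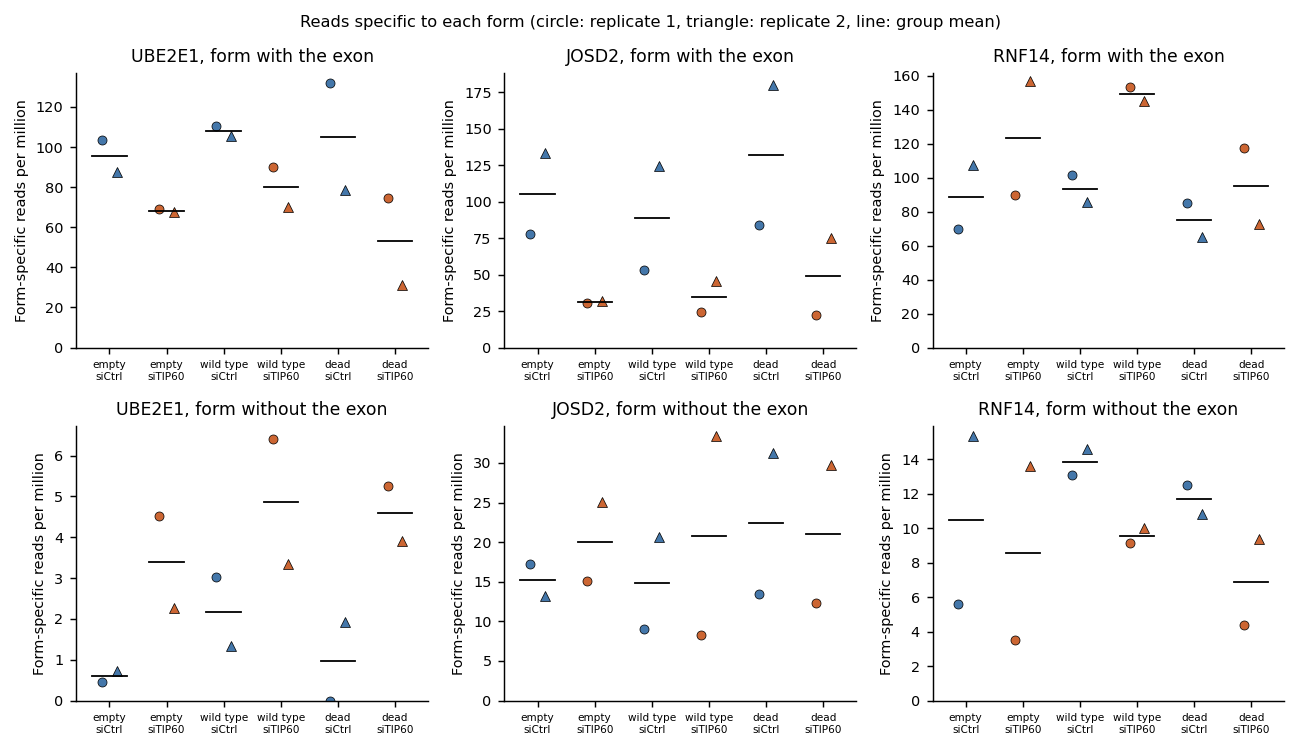
Reads specific to the form with the exon (top) and without it (bottom), in RPM, for UBE2E1, JOSD2 and RNF14 in each library (blue, control siRNA; orange, TIP60 siRNA; circle, replicate 1; triangle, replicate 2; line, group mean). For JOSD2 the mean over libraries is 109 RPM with control and 38.3 RPM with TIP60 siRNA in the top panel, and 17.5 and 20.6 RPM in the bottom panel.

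The counts of calls have to be read against all events. Averaged over the 3 derivatives, 58 of 2695 tested events passed (2.15%), 51 of them lower and 7 higher, and 2 of the 57 members did (3.51%). With the replicate block 115 events passed (4.27%) and 3 members (UBE2E1, JOSD2 and RNF14; 5.26%). These shares of a few members lie near the background. Of the members 33 were lower, 22 higher and 2 equal, with a median difference of −0.0033, beside −0.0067 over all tested events. The call for UBE2E1 was lost without any 1 of the 12 libraries (limma adjusted p 0.059 to 0.114), and that for JOSD2 without any of 11 (0.053 to 0.152), the exception being empty-vector TIP60-siRNA replicate 1 (0.049), while the differences stayed between −0.11 and −0.092 for UBE2E1 and between −0.30 and −0.23 for JOSD2. With the block, leaving out 1 library ended the UBE2E1 call in 11 of 12 cases and the JOSD2 call in 8 of 12. Both calls were also lost on log2 odds (limma adjusted p = 0.061 for UBE2E1 and 0.070 for JOSD2) and with no read minimum (0.051 and 0.060), and the UBE2E1 call in the quasi-binomial model (adjusted p = 0.055).

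Directions within same-number pairs were counted too. The level was lower with TIP60 siRNA in 6 of 6 pairs for 4 of 57 members (7.02%, against 9.46% of all tested events) and higher in 6 of 6 for 2 (3.51%, against 2.34%). The 4 were UBE2E1, JOSD2, RNF41 and TRIM35, and the 2 were RNF14 and TRIM33. Levels did not overlap between the 6 control and 6 TIP60-siRNA libraries for UBE2E1 and JOSD2, both lower (2.6% of all tested events were lower without overlap), and for no member in the other direction (0.445%).

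The other members with small p-values did not pass. The mean level of the 143-nt 5′ UTR exon of RNF41 was 0.147 ± 0.061 in control and 0.082 ± 0.031 in TIP60-siRNA libraries (SD, n = 6). The difference was −0.065 (SE 0.033, limma adjusted p = 0.523). The 96-nt exon of TRIM35 had 0.883 ± 0.041 and 0.782 ± 0.105 (SD, n = 6; −0.10, SE 0.053, limma adjusted p = 0.542), resting on 22 reads of the skipped form in all. TRIM33, a ligase and chromatin reader of the transforming growth factor beta pathway, had 0.735 ± 0.099 and 0.823 ± 0.055 at its 51-nt exon (SD, n = 6; 0.088, SE 0.052, limma adjusted p = 0.619). RNF7 differed by −0.0083 (SE 0.0049, limma adjusted p = 0.618). The 4 tested exons of deubiquitinase genes other than USP39, which come from 3 genes, had a lower average with TIP60 siRNA, as did 62.2% of all tested events. Among them were JOSD2, USP21 (−0.0033) and 2 overlapping exons of USP19 of 300 and 303 nt that share most reads (−0.11 and −0.098, limma adjusted p = 0.673 and 0.737). The averages of both tested cullin exons were also lower (−0.033 for CUL3 and −0.0017 for CUL2). More of their same-number pairs were higher than lower, however (4 against 2 for CUL3, 3 against 1 for CUL2). The 15 RNF exons divided into 7 lower and 8 higher.

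**Figure D4:**
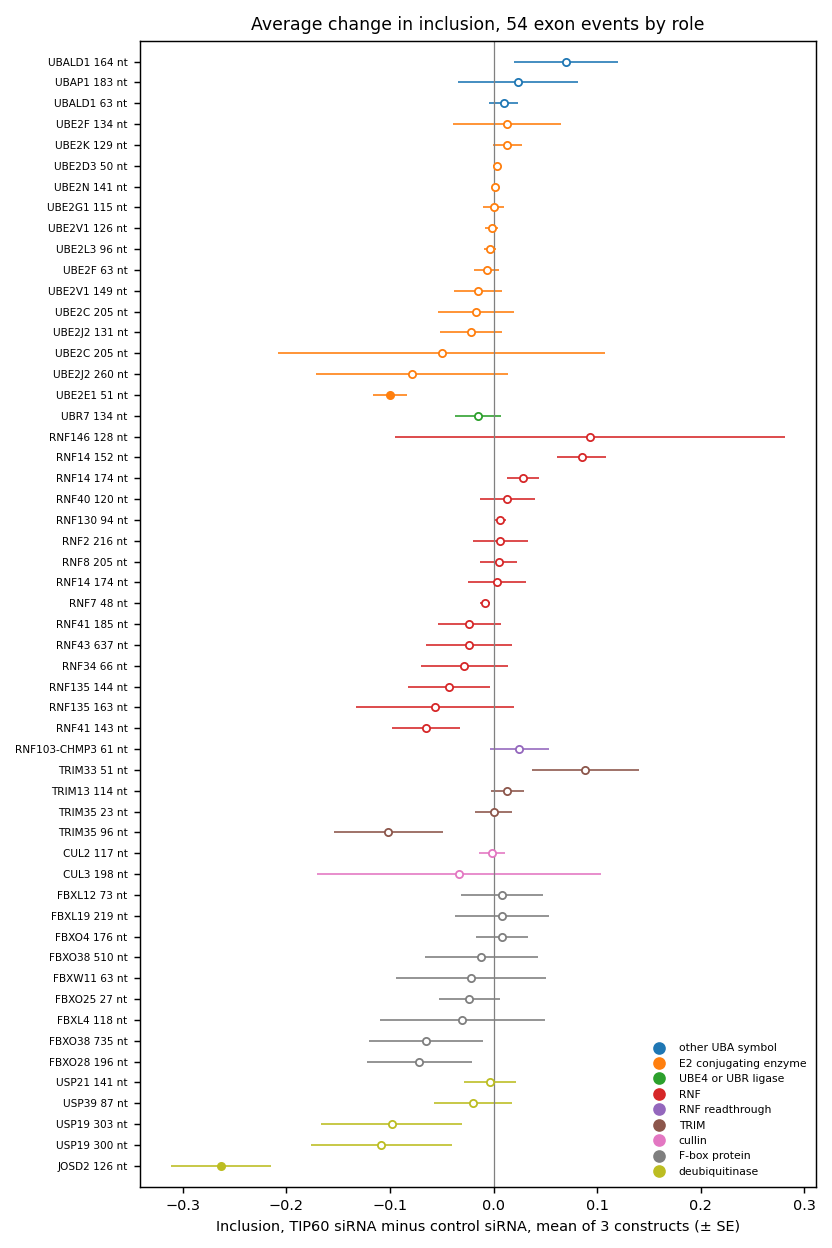
Difference in inclusion (TIP60 siRNA minus control siRNA, averaged over the 3 constructs, ± SE from limma) for 54 of the tested exons, ordered by role and named by gene and exon length; filled points have an adjusted p under 0.05. The filled points are UBE2E1 at −0.10 and JOSD2 at −0.26, and the open points include RNF14 at 0.085 and TRIM35 at −0.10.

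Within single derivatives no member passed, and few events did among all genes. In empty-vector cells 0 of 57 members and 1 of 2695 events passed (0.0371%), in wild-type TIP60 cells 0 and 0 (0%), and in catalytically dead TIP60 cells 0 and 1 (0.0371%). With no adjustment, limma put 2, 3 and 2 members under 0.05. A quasi-binomial model on isoform-specific reads called 0 in each line and put 2, 4 and 2 members under 0.05 before adjustment. JOSD2 differed by −0.29 in empty-vector cells, −0.26 in wild-type cells and −0.23 in catalytically dead cells (SE 0.083 each, limma adjusted p = 0.406, 0.846 and 0.527). UBE2E1 differed by −0.075, −0.070 and −0.15 (SE 0.029 each, limma adjusted p = 0.665, 1.0 and 0.219). RNF14 differed by 0.11 in wild-type cells (SE 0.041, limma adjusted p = 1.0). Next by p in empty-vector cells was a UBE2C exon with no reads of its skipped form (−0.12, SE 0.064), and in catalytically dead cells that of a 637-nt exon of RNF43, a ligase for Wnt receptors (−0.14, SE 0.072). That RNF43 difference was −0.28 in replicate 1 and 0 in replicate 2, and the exon had 1 skipped-form read over all 12 libraries.

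The siRNA-resistant constructs allow a test of whether the siRNA effect differs between lines. For the difference between wild-type and empty-vector cells, between dead and empty-vector cells and between dead and wild-type cells, limma called 0 of 57 members and 0 of 2695 events (0% each), with 2, 0 and 0 members under 0.05 before adjustment. The quasi-binomial model called 0, with 0, 1 and 0 members under 0.05 before adjustment. The UBE2E1 effect in catalytically dead cells differed by −0.080 from that in empty-vector cells (SE 0.041) and by −0.085 from that in wild-type cells (SE 0.041), both at limma adjusted p = 1.0. The widest estimate was for a 163-nt exon of RNF135, the ligase that activates the viral RNA sensor RIG-I. Its level in empty-vector cells was 0.51 and 0.68 with control and 0.92 and 0.72 with TIP60 siRNA, and in wild-type cells 0.68 and 0.67, then 0.60 and 0.22. The difference of effects was −0.49 (SE 0.19, limma adjusted p = 1.0), on 0 to 8 reads of the skipped form per library, and between dead and empty-vector cells −0.35 (SE 0.19). A 205-nt UBE2C event differed in the other direction (0.22, SE 0.090, limma adjusted p = 1.0), and RNF43 by −0.23 between dead and wild-type cells (SE 0.10, limma adjusted p = 1.0).

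Between constructs no member passed either. For wild-type against empty vector under control siRNA, dead against empty vector under control siRNA and dead against wild type under TIP60 siRNA, limma called 0 of 57 members (0% of all events in each), with 0, 0 and 2 under 0.05 before adjustment. The quasi-binomial model called 0, with 0 under 0.05 in each. The smallest p among the control-siRNA comparisons belonged to UBE2K, an E2 that extends chains, with 0.98 and 0.99 in empty-vector and 0.98 and 0.90 in wild-type cells at a 129-nt exon (−0.045, SE 0.024). The next was a 510-nt exon of FBXO38 (0.13, SE 0.095), and for the dead construct the USP19 exons (−0.20 and −0.17, SE 0.12 each). Under TIP60 siRNA a 118-nt 5′ UTR exon of FBXL4, an F-box protein of mitochondria, had 0.46 and 0.35 in wild-type and 0.71 and 0.85 in catalytically dead cells. That difference of 0.38 (SE 0.14, limma adjusted p = 1.0) rested on 0 to 6 skipped-form reads per library, and UBE2E1 followed with −0.070 (SE 0.029, limma adjusted p = 1.0).

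Event reads, the reads of both forms and of the shared exons in RPM, follow the amount of the transcript around each exon, and could be tested for all 94 members. They also move with inclusion, since the form with the exon offers more sequence to read. Averaged over the 3 derivatives, 37 of 4992 events passed in limma (0.741%, 17 higher and 20 lower; after centring each library on its median event 12, with 8 higher and 4 lower) and 0 of 94 members, 3 of which had an unadjusted p under 0.05. With the replicate number as a block 837 events passed (16.8%), 301 higher and 536 lower, and 8 members (8.51%), 5 higher and 3 lower. The members' share is below that of all events. The median log2 difference was −0.05 over members and −0.10 over all events. Centring each library on its median event shifted all differences upward by 0.13, so that 52 members were higher and 42 lower, against 43 and 51 without it. The 8 members that passed with the block kept their direction under centring.

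The deubiquitinases JOSD2 and USP25 were among the 3 lower members under the block. JOSD2 had 116 and 157 RPM in empty-vector cells with control and 53.9 and 65.2 RPM with TIP60 siRNA, 74.6 and 158, then 43.9 and 90.8 RPM in wild-type cells, and 116 and 220, then 41.2 and 113.5 RPM in catalytically dead cells. Each TIP60-siRNA library was below its same-number control, though the groups overlapped. The log2 difference was −1.06 (SE 0.37, limma adjusted p = 0.304; with the block SE 0.18, adjusted p = 0.0039). USP25, at a 96-nt exon on chromosome 21, had 48.4 and 19.0, 47.9 and 17.9, and 49.1 and 17.2 RPM with control siRNA in the 3 lines. With TIP60 siRNA it had 25.2 and 13.7, 33.8 and 3.34, and 30.3 and 7.04 RPM, again lower in 6 of 6 pairs (−1.01, adjusted p = 0.044 with the block in limma). The USP25 form without the exon had 22.2 ± 9.04 RPM with control and 9.75 ± 7.22 RPM with TIP60 siRNA (SD, n = 6). It was lower in 6 of 6 pairs. The form with the exon had 5.73 ± 2.31 and 5.06 ± 2.77 RPM (SD, n = 6), lower in 4 pairs and higher in 2. Without USP39, 12 of 12 events of deubiquitinase genes had a negative log2 difference, as did 57.5% of all events, with a median of −0.51. The 2 USP39 events were positive, and the 12 include both overlapping events of USP19. After centring 10 of the 12 were negative, against 47.7% of all events, with a median of −0.38. RNF217, a RING-between-RING ligase, was lower in 5 of 6 pairs, with 183 to 338 RPM in control and 103 to 252 RPM in TIP60-siRNA libraries (−0.55, limma adjusted p = 0.615, with the block 0.044).

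Of the 5 higher events under the block 4 lay in F-box genes, in 2 genes. Over all 15 F-box events 8 had a negative and 7 a positive log2 difference, with a median of −0.06. FBXO44, an F-box substrate receptor, had 2 events at one 5′ UTR position, a 30-nt exon nested in a 372-nt exon, so their reads largely coincide. The 30-nt event had 10.2 to 27.2 RPM in control and 21.6 to 41.7 RPM in TIP60-siRNA libraries (0.83, SE 0.32, limma adjusted p = 0.396, with the block 0.040), and the 372-nt event differed by 0.64 (with the block in limma 0.046). FBXL12, another receptor, had 2 events that share a 73-nt exon and the downstream exon, at 68.1 to 153 and 108 to 229 RPM for the 44-nt exon (0.47, limma adjusted p 0.031 with the block) and at 82.7 to 221 and 135 to 295 RPM for the 73-nt exon (0.41, 0.045).

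**Figure D5:**
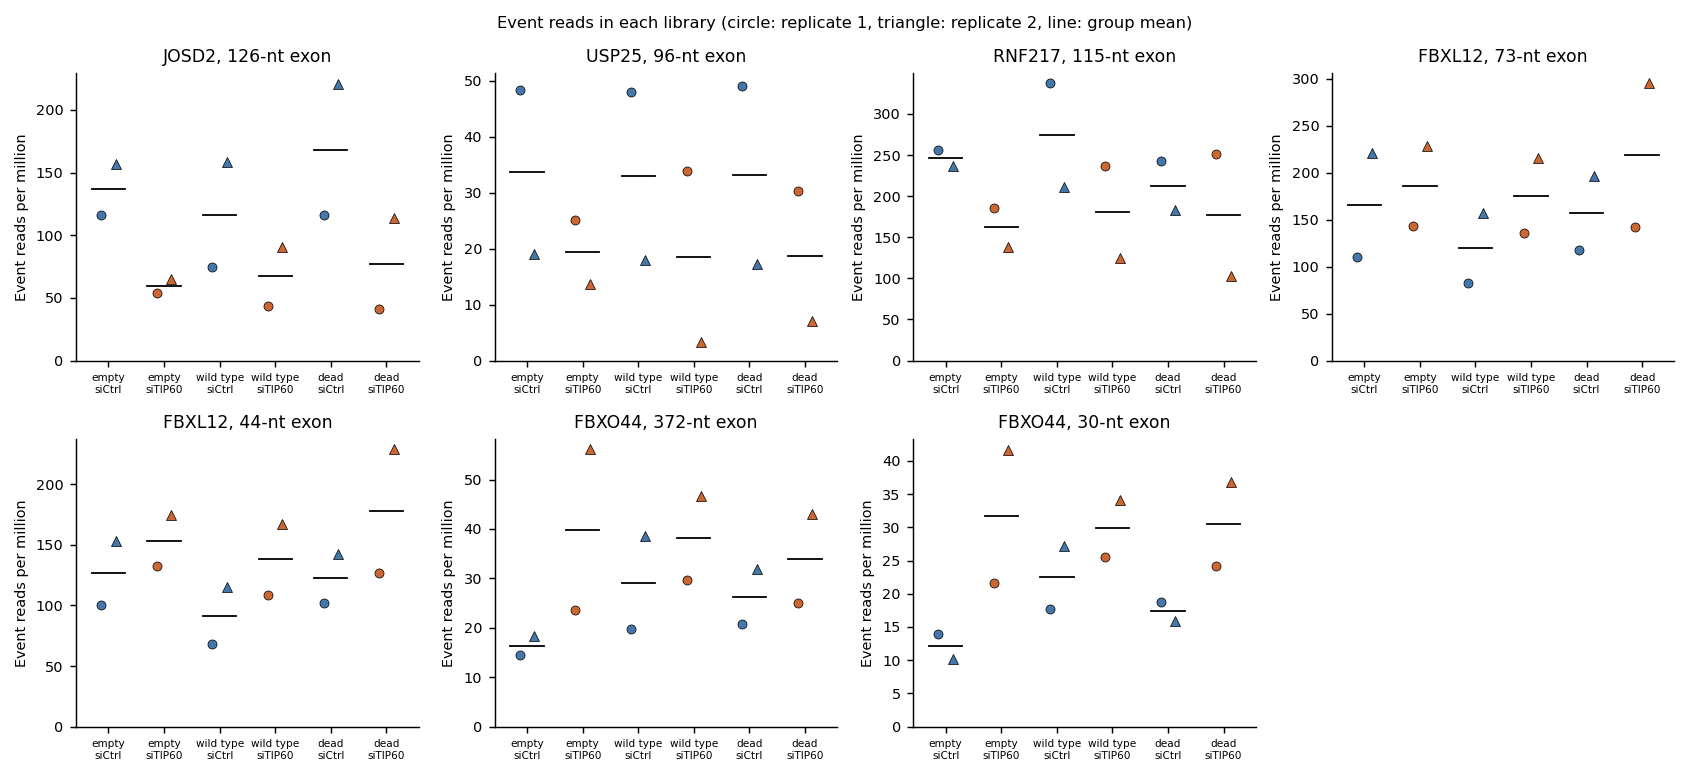
Event reads (RPM) in each library for 7 of the events that passed with the replicate block (blue, control siRNA; orange, TIP60 siRNA; circle, replicate 1; triangle, replicate 2; line, group mean of 2). Within each line and replicate number the orange point lies below the blue one for JOSD2 and USP25 and above it for FBXO44 and FBXL12, and for RNF217 it lies below in 5 of 6.

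Without the block 15 of 94 members had fewer event reads with TIP60 siRNA in 6 of 6 pairs (16.0%, against 18.7% of all events) and 10 more (10.6%, against 12.1%). For no member were the 6 control and 6 TIP60-siRNA libraries apart, in either direction (2.42% and 1.26% of all events). UBE2E1 was among the 15, with 81.7 to 150 RPM in control and 36.8 to 117 RPM in TIP60-siRNA libraries (−0.55, limma adjusted p = 0.655, with the block 0.056), and RNF14 at its 152-nt exon among the 10 (0.39, limma adjusted p = 0.689, with the block 0.166). RNF146 had 0.30 (limma adjusted p = 0.616). Fits without 1 library have no count over all events given here, so their member counts cannot be set against a background share. Leaving out 1 library moved the number of members called with the block between 1 and 15. The count was 15 without empty-vector TIP60-siRNA replicate 2 or catalytically dead TIP60-siRNA replicate 1, 3 or 4 without wild-type TIP60-siRNA replicate 1 or empty-vector control replicate 2, and 1 or 2 without either control library of the wild-type or dead line, wild-type TIP60-siRNA replicate 2 or catalytically dead TIP60-siRNA replicate 2.

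In the 3 single lines limma called 0 members and 0 of 4992 events for event reads (0%), and with the block 0 members again. In the fit without the block 1, 0 and 0 members had an unadjusted p under 0.05 in empty-vector, wild-type and catalytically dead cells. FBXO44 had the smallest p in empty-vector cells (1.29 on the log2 scale, SE 0.56, limma adjusted p = 1.0) and JOSD2 the next (−1.18, SE 0.64). In wild-type cells these were the RNF14 152-nt event (0.57, SE 0.41) and the FBXL12 44-nt event (0.60, SE 0.47), and in catalytically dead cells it was JOSD2 (−1.22, SE 0.64). The 3 differences of siRNA effects and the 3 construct comparisons also had 0 calls among members and among all events (0%), with 0 members at an unadjusted limma p under 0.05 in each. Their smallest p-values were as follows. For the siRNA effect, wild type minus empty vector gave FBXO4 (0.77, SE 0.63) and the 30-nt FBXO44 event (−0.87, SE 0.79), dead minus empty vector TRIM26 (−1.01, SE 1.06) and the 372-nt FBXO44 event (−0.80, SE 0.89), and dead minus wild type FBXL19 (−0.78, SE 0.78) and FBXL4 (1.09, SE 1.12). Between constructs the 106-nt 5′ UTR event of CUL2 had 1.86 and 7.31 RPM in empty-vector, 13.6 and 9.96 RPM in wild-type and 6.25 and 10.8 RPM in dead cells under control siRNA. The 30-nt FBXO44 event differed by 0.85 (SE 0.56) between wild type and empty vector, and FBXO4 by −0.54 (SE 0.45) between dead and empty vector. Under TIP60 siRNA FBXL19 differed by −1.03 (SE 0.55) and RNF14 by −0.57 (SE 0.41) between dead and wild type.

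Other genes of the system, outside the symbol rule, were taken as 5 lists: further ligases, further cullin-ring and anaphase-promoting complex subunits, further deubiquitinases, ubiquitin receptors and proteasome subunits, and ubiquitin-like systems. Together they had 146 events in 89 genes, of which 92 could be tested for inclusion. On average over the lines 1 was lower and 0 higher past the threshold in limma, and 3 and 0 with the block. These are 1.09% and 3.26% of the 92, below the 2.15% and 4.27% of all tested events. The called exon was a 117-nt coding exon of ADRM1, a ubiquitin receptor of the proteasome, on chromosome 20 from 62304461 to 62304577. Its level was 0.938 ± 0.029 in control and 0.838 ± 0.038 in TIP60-siRNA libraries (SD, n = 6). The difference was −0.10 (SE 0.018, limma adjusted p = 0.046). With the block, a 106-nt exon of ELOB, an adaptor of cullin ligases, passed at 0.978 ± 0.010 and 0.955 ± 0.019, and a 95-nt exon of PSMA6, a proteasome core subunit, at 0.993 ± 0.008 and 0.975 ± 0.015 (SD, n = 6; limma adjusted p = 0.018 and 0.031).

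Beside a median inclusion difference of −0.0067 over all tested events, the lists had −0.04 for 26 tested exons of further ligases (19 lower and 6 higher), −0.0083 for 28 cullin-ring and anaphase-promoting complex exons, −0.0042 for 26 exons of receptors and proteasome, and −0.019 for 12 of ubiquitin-like systems. The further deubiquitinases had no tested exon. For event reads the lists had 0 calls, and with the block 10 lower and 5 higher of 146 events (10.3%, below the 16.8% of all events). Among these were COPS8, a subunit of the COP9 signalosome that removes NEDD8 from cullins (−1.08, limma adjusted p = 0.0013 with the block), and PSMA6 (−1.07, adjusted p = 5.6e-04). COPS7B, another signalosome subunit, was higher at its 53-, 68- and 89-nt exons (0.58, 0.59 and 1.01, limma adjusted p = 0.013, 0.012 and 0.011 with the block). The 53-nt exon lies within the 68-nt exon, so the values of this pair are not independent.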

How the data were processed

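MISO summary files, 1 per library, listed for each cassette exon event the inclusion level as a fraction from 0 to 1 (posterior mean) with its 95% interval and the reads of each class, per the file headers. Reads had been aligned with STAR to hg38, per the submitters' processing notes. The kit was stranded and selected mRNA, per the labels' protocols. The members and lists were chosen with earlier results of these data known. Middle exons were matched by coordinates and strand to GENCODE 29 (hg38), which named 4763 of 4992 events. From the deposited fractions, limma 3.58.1 (R 4.3.3) fitted the levels of 2695 events with at least 10 isoform-specific reads in every library, with 6 groups, a trend on reads and robust variances. Event reads were fitted as log2(RPM + 0.5). Fold changes on that scale understate changes of low events. Benjamini-Hochberg adjustment ran over all events, with a threshold of 0.05. Counts of members at an unadjusted p under 0.05 are given without the share of all events, and carry no result about the members. The 10 comparisons were 3 siRNA effects by line, their average, 3 differences of these and 3 construct comparisons. The scripts were tested on simulated data with no difference between replicate sets. The fit with the replicate block was not part of that test.

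Same-number libraries deviated together from their group means (correlation 0.706 to 0.779 for inclusion over 15 pairs of groups, 0.583 to 0.896 for event reads), so the replicate numbers pair the samples. The main fit has no such term, so its spread includes the difference between the replicate sets. A fit with that block is printed where it changes a call. The alternatives were the block, other read minimums, log2 odds, a quasi-binomial model, other pseudocounts, centring, fewer libraries and each library left out. Named genes were the 8 members with the smallest p for the average inclusion effect, 3 for each line and 2 for every other comparison. For event reads they were 5 for the average and 2 for the others. Every member past the threshold was also named. So were, for each role, the exon with the most isoform-specific reads and the one with the widest range of inclusion. Events past the threshold only with the block for reads, events whose replicate sets differed and genes of the lists were named after their values were seen. Some genes are not reported here, though the counts of events include those that met the rule.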

Additional observations from a re-analysis of the deposited data

How the results depend on the processing

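The average inclusion effect had 2 members past the threshold, 2 at a minimum of 20 reads, 2 with intervals at most 0.5 wide, and 3 with the replicate block. It had 0 on log2 odds (smallest limma adjusted p = 0.061; 3 members under an unadjusted 0.05), 0 with no read minimum (0.051; 7 members), 1 in the quasi-binomial model and 6 in that model with the replicate block (JOSD2, UBE2E1, RNF14, RNF146 and both USP19 events; 10.5% of members, below the 12.8% of all tested events). Without 1 library it had 0 to 1, and with the block and without 1 library 0 to 2. For UBE2E1 the adjusted p ran from 0.030 to 0.114 over 19 alternatives, for JOSD2 from 0.0093 to 0.152 and for RNF14 from 0.019 to 0.353. For event reads the average effect had 0 members, and 8 with the replicate block. With the block and without 1 library it had 1 to 15 (share of all events not given). The cause of these changes was not tested. For the 18 other results on member counts no alternative changed the number of calls from 0, and the block changed no other call. No difference of a named member changed sign under any of its alternatives, 1004 values over 56 differences. The quasi-binomial fit with the block, the limit on interval width and the block with a library left out were added after the data were seen. Depth limits the levels: in the library with fewest, a tested member had 11 to 530 isoform-specific reads, with a median of 30.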
